A study of Mus musculus with 15 samples.

Results

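The 9 genes described here encode enzymes of the citrate cycle and the isocitrate dehydrogenases. They were chosen by name, as Cs, Idh1, Idh2, Idh3a, Idh3g, Ogdh, Suclg1, Fh1 and Mdh2, and all 9 were found among the 16154 genes of the deposited count table. The RNA came from hematopoietic stem cells (HSC), the bone marrow cells from which all blood lineages descend, sorted as lineage-negative cells with Sca-1, cKit and CD150 but without CD48 on their surface. There were 3 groups of 5 libraries, each given as 20000 to 25000 sorted cells of 1 C57BL/6 mouse labelled female. Young HSC came from untreated mice 6 to 12 weeks old and aged HSC from untreated mice 20 to 24 months old. HSC from NR-treated aged animals came from mice of the same aged range that drank nicotinamide riboside (NR), a precursor of the coenzyme NAD, at 3 mg/ml in the water for 2 months. The comparisons ask how the mRNA of these enzymes differs with age in HSC, and how it differs between NR-treated and untreated aged mice.

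The citrate cycle oxidises acetyl groups in the mitochondrial matrix. It passes their electrons to NAD and FAD, which feed the respiratory chain, and NAD is therefore a substrate of several of its enzymes. Citrate synthase (Cs) starts the cycle, the NAD-dependent isocitrate dehydrogenase (Idh3a, Idh3b, Idh3g) and 2-oxoglutarate dehydrogenase (Ogdh) release CO2, succinyl-CoA ligase (Suclg1) makes a nucleoside triphosphate, and fumarase (Fh1) and malate dehydrogenase (Mdh2) regenerate oxaloacetate. Idh1 in the cytosol and peroxisomes and Idh2 in mitochondria carry out the isocitrate reaction with NADP instead and so supply NADPH. Resting HSC are known for a low rate of oxidative metabolism.

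Young libraries held 2122221 to 3631395 counts each, aged libraries 764119 to 13318989, and libraries of NR-treated mice 2486399 to 3595384. Aged replicate 2 was the shallowest library and aged replicate 3 the deepest. Counts were unique molecules read near the 3′ end of each transcript and are given as CPM, a library's counts scaled to a common total, after adjustment by the trimmed mean of M values (TMM), so a level is compared between libraries and never between genes. All 10 HSC markers fixed as a list, among them Kit, Slamf1, Procr and Hlf, had counts in every library. Their levels were not alike between groups. With age 5 of the 10 were called higher and none lower, beside 9.68% and 9.63% of all genes. With NR 1 was called lower and none higher, and 3 were called higher in NR-treated aged than in young HSC, beside 2.56% of all genes. Genes of 4 mature blood cell lists (37 of 40 in the table) made up 0.299 to 0.438% of the counts in libraries from NR-treated mice and 1.07 to 1.42% in aged libraries. In young HSC they made up 0.323 to 0.631% in 4 libraries and 1.42% in replicate 3, which held 7906 CPM of granulocyte and monocyte transcripts against 587 to 1502 in the other 4. Young replicates 1 and 5 also held Y-linked transcripts, although all mice are labelled female. Their sums were 99.7 and 105.5 CPM, against 0.731 to 2.995 CPM in every other library. Young replicates 1 and 5 held Xist, a transcript of female cells, at 420 and 472 CPM, the lowest levels of the young group. The other young libraries held 557 to 895 CPM, aged libraries 293 to 429 CPM and NR-treated libraries 512 to 853 CPM. The origin of these Y-linked transcripts was not tested. Counts were scaled on the whole table, and without the TMM factor the median log2 fold change of all genes moved from -0.03 to -0.16 for aged against young and from 0.02 to 0.16 for NR-treated against untreated aged HSC. The share of called genes that were higher then moved from 50.1% to 29.1% and from 48.1% to 78.4%.

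In aged HSC, the mRNA of 1 of the 9 enzymes rose, Suclg1, and none fell. In HSC from NR-treated aged animals, 1 of the 9, Idh1, fell against untreated aged HSC and none rose. No member passed the test between NR-treated aged and young HSC. A gene is called here where the Benjamini-Hochberg adjusted p of edgeR's quasi-likelihood test over all genes was below 0.05. For aged against young HSC 19.3% of all genes were called (9.68% higher, 9.63% lower), for NR-treated against untreated aged HSC 8.07% (3.88% higher, 4.18% lower) and for NR-treated aged against young HSC 4.47% (2.56% higher, 1.91% lower). The members' count of 1 in 9 in each of the first 2 comparisons is near those shares. Those 2 comparisons share the 5 untreated aged libraries, so their values are not independent. Each library is given as 1 mouse, and in RNA from sorted pools fewer cells of a type and less RNA per cell cannot be told apart.

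The stretches just before the annotated starts of Idh1 and Suclg1 are shown because these were the members that passed the test. Idh1 lies on chromosome 1 (GRCm38, chr1:65158616-65186500, minus strand) and Suclg1 on chromosome 6 (chr6:73248382-73276911, plus strand), and both are protein coding. The sequences are from RefSeq's promoter table on GRCm38.p6, which matched 8 of the 9 members. They run 5′ to 3′ on the gene's strand, and capitals mark the CCAAT box (CCAAT) and the GC box (GGGCGG), each searched on both strands.
Idh1, chr1:65186501-65186729, minus strand: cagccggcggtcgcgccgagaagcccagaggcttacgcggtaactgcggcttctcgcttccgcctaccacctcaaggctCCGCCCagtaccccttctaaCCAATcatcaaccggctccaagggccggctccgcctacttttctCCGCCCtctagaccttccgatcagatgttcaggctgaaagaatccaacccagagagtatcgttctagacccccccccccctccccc
Suclg1, chr6:73248255-73248381, plus strand: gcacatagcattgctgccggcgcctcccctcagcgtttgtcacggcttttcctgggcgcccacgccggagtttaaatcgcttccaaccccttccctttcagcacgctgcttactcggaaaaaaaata
Motifs were counted in the 250 bases before each start in RefSeq's table, and these windows reach into the gene as annotated above, where no sequence is printed: by 21 bases for the Idh1 start shown and by 123 for Suclg1. The shown Idh1 window held 1 CCAAT box and 2 GC boxes, a second Idh1 start in the table (window chr1:65179143-65179392) had no CCAAT box and 1 GC box, and the Suclg1 window held neither. Of all 32851 windows of that length in the table, 33.8% held a CCAAT box and 32.7% a GC box. The NRF1 motif, the ETS motif (CCGGAAG), the E-box (CACGTG) and the CRE core (TGACGT) were in none of these 3 windows, and 3.74%, 6.91%, 6.02% and 6.47% of all windows held them. No binding or chromatin was measured, so these matches are a description of letters only.

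Citrate synthase mRNA differed little between groups. Cs stood at 93.8 ± 5.90 CPM in young HSC, 88.9 ± 9.80 in aged HSC and 88.8 ± 11.01 in HSC from NR-treated aged animals (mean ± SD, n = 5 each, as for all values in this form). All 15 libraries lay between 73.6 and 102.8 CPM and the groups overlapped throughout. The log2 fold change for aged against young was -0.07, with a 95% interval of -0.30 to 0.16, and for NR-treated against untreated aged HSC it was -0.01, with an interval of -0.24 to 0.22.

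Idh1, the cytosolic and peroxisomal NADP-dependent enzyme, had the widest differences of the members. In aged HSC its levels were 50.3, 55.8, 81.0, 52.1 and 60.9 CPM in replicates 1 to 5. After NR treatment of aged mice they were 28.5, 22.4, 31.5, 24.1 and 45.5 CPM. All 5 NR-treated libraries lay below all 5 aged libraries, which was so for 8.6% of all genes in either direction. Young HSC had 36.1, 43.4, 85.3, 36.6 and 33.7 CPM, so that 4 young libraries lay below every aged one and replicate 3 lay above them all.

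The group levels of Idh1 were 60.0 ± 12.4 CPM in aged HSC, 30.4 ± 9.17 in HSC from NR-treated aged animals and 47.0 ± 21.7 in young HSC. NR-treated aged HSC had 0.505 times the level of untreated aged HSC (95% interval 0.357 to 0.714), a log2 fold change of -0.99 ± 0.24 (SE) with an adjusted p of 0.0188 by edgeR's quasi-likelihood test. With library totals in place of TMM the log2 fold change was -0.84 (adjusted p 0.0305 by the same test). Relative to the median of all genes it was -1.01 with TMM, a value that a change of scaling leaves nearly the same by construction. Of 25 other settings the call was lost in 3, without aged replicate 3 (-0.83, adjusted p 0.068), without NR-treated replicate 4 (-0.92, adjusted p 0.0553) and without both the shallowest and the deepest aged library (-0.83, adjusted p 0.105), all by the same quasi-likelihood test. In the shallowest library the level rested on 43 counts, with an exact Poisson 95% interval of 40.4 to 75.1 CPM that covers counting error only and reaches below the highest NR-treated library.

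Against young HSC the aged level of Idh1 did not pass the quasi-likelihood test (log2 fold change 0.37, 95% interval -0.12 to 0.87, adjusted p 0.282). That call was decided by young replicate 3: without it the log2 fold change was 0.69 with an adjusted p of 0.0162 by the same test. This was the only 1 of 25 other settings in which Idh1 was called with age. NR-treated aged HSC stood 0.61 below young HSC on the log2 scale (interval -1.12 to -0.11), which had an unadjusted p of 0.0203 and an adjusted p of 0.178 by the quasi-likelihood test. Without young replicate 3 this difference was -0.30.

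Granulocyte and monocyte transcripts, like Idh1, were lower in NR-treated than in untreated aged libraries. The 12 markers of that list, all in the table, summed to 2293 to 3565 CPM in aged libraries and to 569 to 944 CPM in NR-treated ones, and 10 of the 12 fell between these groups. No aged library had a sum as low as any NR-treated library. In the young and in the aged group, ordering libraries by this sum and by Idh1 exchanged only replicates 2 and 4. In the NR-treated group these orders differed more. Young replicate 3, aged replicate 3 and NR-treated replicate 5 had the highest sum of their group and also its highest Idh1. Young replicate 4 had 1502 CPM of markers and 36.6 CPM of Idh1, beside 655 and 36.1 CPM in replicate 1. NR-treated replicate 3 had the lowest sum, 569 CPM, with 31.5 CPM of Idh1, beside 769 and 22.4 CPM in NR-treated replicate 2. Young replicate 3 had 7906 CPM of markers and 85.3 CPM of Idh1, beside 3565 and 81.0 CPM in aged replicate 3. Of the markers, Ly6g was at 0 in at least 1 young library, and S100a9, Ltf, Camp and Ly6g were each at 0 in at least 1 NR-treated library. Erythroid markers, which carry haemoglobin, summed to 5485 to 8962 CPM in aged and 1944 to 3057 CPM in NR-treated libraries (8 of 9 fell), and B and plasma cell markers to 652 to 4516 and 88.7 to 181 CPM (7 of 10 fell). T and NK cell markers (6 of 8 in the table) summed to 206 to 254 and 138 to 217 CPM. Megakaryocyte and platelet markers overlapped, at 749 to 1133 CPM in aged and 560 to 1494 CPM in NR-treated libraries (1 of 6 rose and none fell). The part of these transcripts in the Idh1 difference was not tested.

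**Figure D1:**
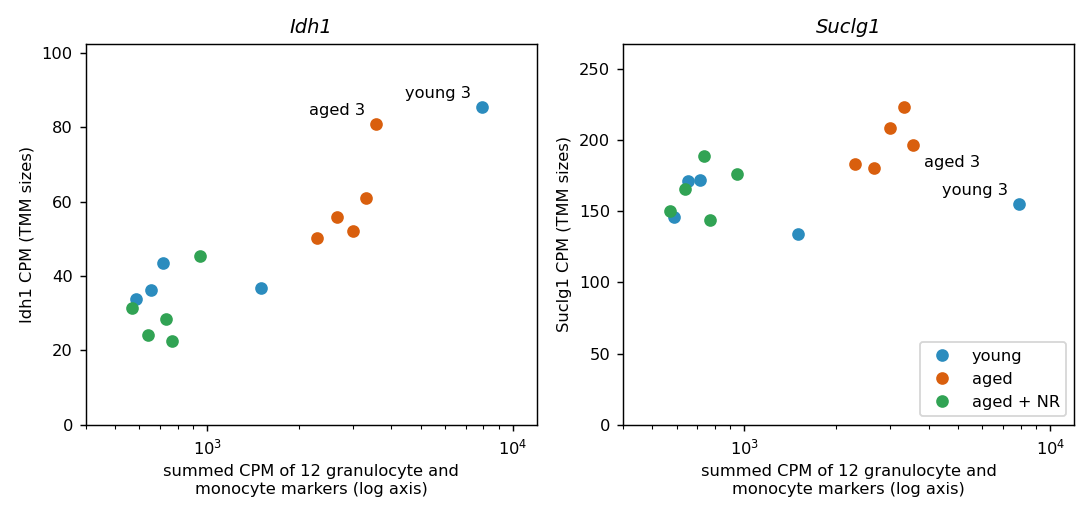
Each point is 1 of 15 libraries, with the summed CPM of 12 granulocyte and monocyte markers on a log axis and the CPM of Idh1 (left) or Suclg1 (right) on a linear axis, colored by group. Young replicate 3, at 7906 CPM of markers, has the highest Idh1 (85.3 CPM) but a Suclg1 level of 155 CPM, below all 5 aged libraries.

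Idh2, the mitochondrial NADP-dependent enzyme, had its highest level in young HSC. Levels were 188.5 ± 16.8 CPM in young, 158.9 ± 37.5 in aged and 148 ± 20.2 in NR-treated aged HSC. The aged libraries had 126.4, 222, 137, 160.2 and 149 CPM in replicates 1 to 5, so that the shallowest of them, replicate 2, stood above all young libraries (169 to 212 CPM) while the others stood below them. The log2 fold change for aged against young was -0.27 (interval -0.55 to 0.01, quasi-likelihood adjusted p 0.171), and without aged replicate 2 it was -0.40 with an adjusted p of 0.0261 by the same test. No other of the 25 other settings called Idh2 with age. NR-treated aged HSC were 0.35 below young HSC on the log2 scale (interval -0.63 to -0.07, unadjusted p 0.0182 and adjusted p 0.166 by the quasi-likelihood test). Untreated and NR-treated aged HSC differed by -0.08 with an interval of -0.36 to 0.20.

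The balance of the mRNAs of the NADP-dependent enzymes can be read within a library, where no scaling between libraries enters. Idh1 took 20.1 to 37.2% of the counts of Idh1 and Idh2 together in aged HSC, 13.4 to 22.3% after NR and 14.6 to 32.6% in young HSC. The highest young share was again in replicate 3, and the other 4 young libraries lay at 14.6 to 18.5%. The mean log2 ratio of Idh1 to Idh2 was -1.39 ± 0.45 in aged and -2.32 ± 0.37 in NR-treated aged HSC, a difference of -0.92 (two-sided exact permutation test, p = 0.0159, adjusted p = 0.0635 over 12 ratio tests). For Idh1 over Cs, the log2 ratio was -0.91 to -0.32 in aged libraries and -1.95 to -1.0 in NR-treated ones, with no overlap (difference -1.0, exact permutation p = 0.00794, adjusted p = 0.0635). With 5 libraries against 5 the smallest p is 0.00794, which in a single test of 12 would adjust to 0.0952, and none of the 12 ratio tests passed at 0.05. Between aged and young HSC these ratios differed by 0.69 for Idh1 over Idh2 (exact permutation p = 0.103, adjusted 0.248) and by 0.51 for Idh1 over Cs (exact permutation p = 0.0873, adjusted 0.248). Without young replicate 3 these differences were 0.95 and 0.72, each with an adjusted exact permutation p of 0.0381.

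No subunit of the NAD-dependent enzyme passed the test in any comparison. Idh3a, the catalytic subunit, stood at 99.3 ± 17.4 CPM in young, 113.5 ± 6.63 in aged and 103 ± 18.7 in NR-treated aged HSC. Idh3g, a regulatory subunit encoded on chromosome X, stood at 197 ± 22.1, 225 ± 16.1 and 207 ± 29.2 CPM in the same order. Their log2 fold changes for aged against young were 0.20 (interval -0.08 to 0.48) and 0.19 (-0.04 to 0.42), and for NR-treated against untreated aged HSC -0.15 and -0.12. Idh3b, the remaining subunit, had 123 ± 13.8, 145.5 ± 18.7 and 125 ± 13.2 CPM. Its aged level was 1.18 times the young level (95% interval 0.999 to 1.39, unadjusted p 0.0521 and adjusted p 0.155 by the quasi-likelihood test), with 3 aged libraries above all young ones, and its log2 fold change with NR was -0.21. The log2 ratio of Idh3a to Idh3g was -1.0 ± 0.20 in young, -0.98 ± 0.04 in aged and -1.02 ± 0.20 in NR-treated aged HSC, and differed between groups by at most 0.04 in size.

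Ogdh, the first enzyme of the 2-oxoglutarate dehydrogenase complex, had 112 ± 18.0 CPM in young, 101 ± 35.2 in aged and 95.01 ± 9.12 in NR-treated aged HSC. The aged spread came from replicate 2, the shallowest library, which had 162 CPM while the other 4 had 76.9 to 101.5 CPM. The log2 fold change for aged against young was -0.19 (interval -0.54 to 0.15, quasi-likelihood adjusted p 0.452), and without that library it was -0.38 with an adjusted p of 0.049 by the same test. Idh2 and Ogdh were thus both highest in aged replicate 2 among the aged libraries and were both called lower in aged HSC without it. Each was called with age in only this 1 of 25 other settings. Between NR-treated and untreated aged HSC the difference for Ogdh was -0.05 with an interval of -0.39 to 0.30.

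Suclg1, the alpha subunit shared by both forms of succinyl-CoA ligase, was the member that rose with age. Its levels were 171, 172, 155, 134 and 146 CPM in young replicates 1 to 5 and 183, 180.3, 197, 209 and 223 CPM in aged replicates 1 to 5. Every aged library lay above every young one, which was so in one direction or the other for 12.4% of all genes. In HSC from NR-treated aged animals the levels were 189, 144, 151, 165.5 and 176 CPM, overlapping both other groups.

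Aged HSC had 1.28 times the young level of Suclg1 (95% interval 1.10 to 1.49), with means of 156 ± 16.5 and 198 ± 17.9 CPM and a log2 fold change of 0.35 ± 0.11 (SE) with an adjusted p of 0.0254 by edgeR's quasi-likelihood test. The call was lost in 8 of 25 other settings, with adjusted p of 0.051 to 0.104 by the quasi-likelihood test: without young replicate 4 or 5, without aged replicate 3, 4 or 5, without young replicates 1 and 5 together, with library totals and with counts thinned to the shallowest library. The fitted value stayed between 0.23 and 0.40 in all 25. With library totals it was 0.23 (adjusted p 0.104 by the quasi-likelihood test). Relative to the median of all genes the TMM value was 0.39, which a change of scaling leaves nearly the same by construction. HSC from NR-treated aged animals had 165 ± 18.4 CPM and stood 0.27 below untreated aged HSC on the log2 scale (interval -0.49 to -0.05, unadjusted p 0.0201, adjusted p 0.12 by the quasi-likelihood test). Against young HSC the difference was 0.09 (interval -0.14 to 0.31). Mature cell transcripts were also higher in aged HSC: erythroid markers summed to 2303 to 4644 CPM in young and 5485 to 8962 CPM in aged libraries (4 of 9 rose), and B and plasma cell markers to 109 to 813 and 652 to 4516 CPM (5 of 10 rose). T and NK cell markers summed to 106 to 184 and 206 to 254 CPM (1 of 6 rose). Megakaryocyte and platelet markers summed to 596 to 727 and 749 to 1133 CPM (1 of 6 rose). The granulocyte and monocyte markers overlapped between these groups through young replicate 3, which had 155 CPM of Suclg1 (1 of 12 rose). Markers of CD48-positive progenitors went the other way, with sums of 269 to 391 CPM in young and 167 to 187 CPM in aged libraries (3 of 4 fell). The part of any of these transcripts in the Suclg1 difference was not tested.

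Fumarase and malate dehydrogenase did not pass in any comparison. Fh1 stood at 78.1 ± 7.45 CPM in young, 87.1 ± 14.8 in aged and 78.7 ± 17.1 in NR-treated aged HSC, with a log2 fold change of 0.18 for aged against young (interval -0.12 to 0.49). Mdh2 stood at 242 ± 42.8, 282 ± 17.3 and 264 ± 50.6 CPM, with a log2 fold change of 0.22 (interval -0.06 to 0.50). The aged Mdh2 levels of 268.6 to 309 CPM lay inside the young range of 205 to 289 CPM or just above it, and NR-treated libraries spread from 208 to 313 CPM.

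**Figure D2:**
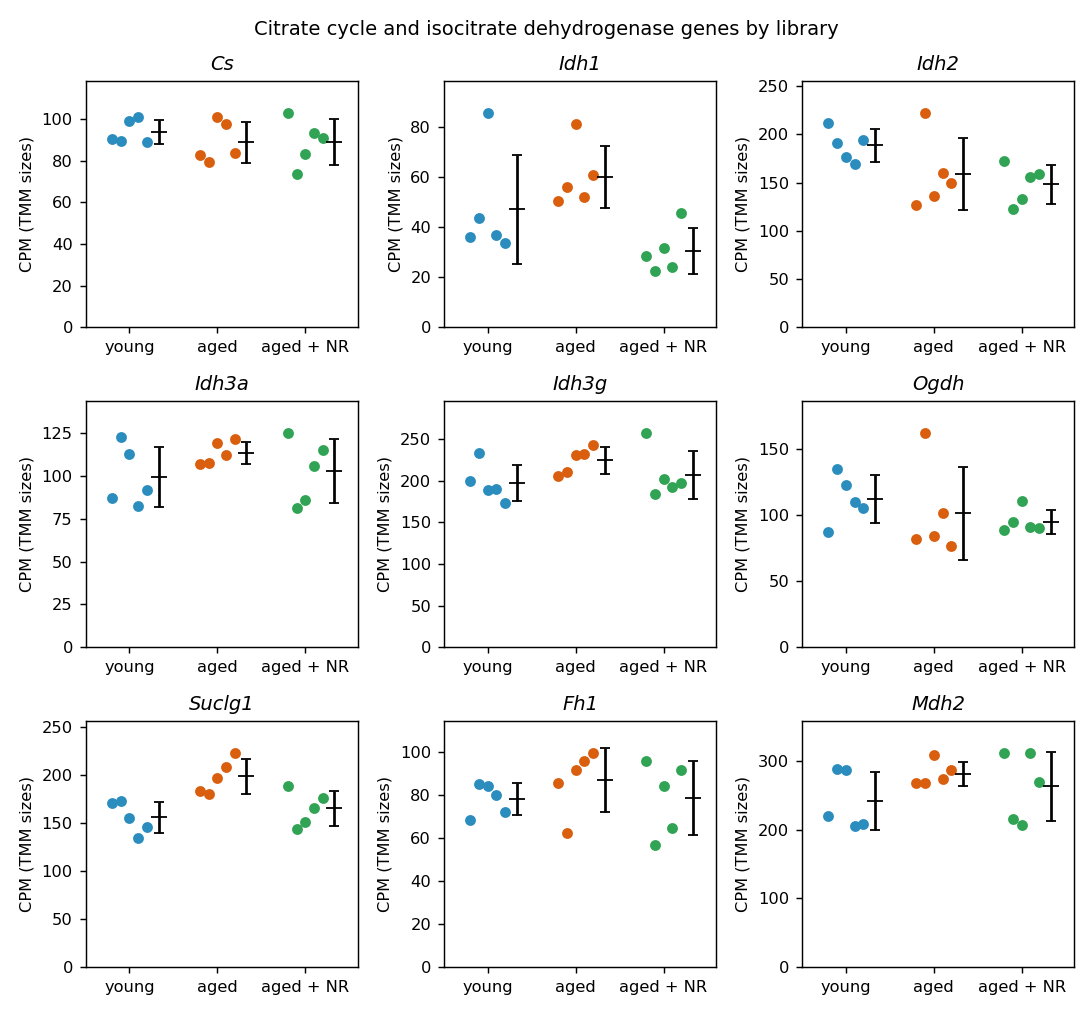
CPM (TMM sizes) of each of the 9 members in 15 libraries, 1 panel a gene, with points for libraries in the order of replicates 1 to 5 and a bracket for the mean ± SD of each group. Idh1 separates aged (50.3 to 81.0 CPM) from NR-treated aged libraries (22.4 to 45.5 CPM), Suclg1 separates aged (180.3 to 223 CPM) from young libraries (134 to 172 CPM), and the other 7 panels show overlapping groups.

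Across the 9 members the fitted change for aged against young was above 0 in 6 and below 0 in 3 (Cs, Idh2 and Ogdh), with a median of 0.19 on the log2 scale beside -0.03 over all genes, of which 47.2% were above 0. For NR-treated against untreated aged HSC all 9 were below 0, with a median of -0.12 beside 0.02 over all genes, of which 51.8% were above 0. With library totals in place of TMM 5 of the 9 were above 0 in that comparison. With TMM all 9 were below the median of all genes. A change of scaling moves all genes by nearly the same amount, so that position is alike under any scaling by construction. It is therefore no check on the scaling. Most of the 9 fitted changes with NR were small next to their intervals, and 7 of the 9 had an unadjusted p of 0.05 or more by the quasi-likelihood test. For NR-treated aged against young HSC 5 were above and 4 below 0, with a median of 0.01, beside 49.4% of all genes above 0. In that comparison no member's groups were free of overlap, against 4.74% of all genes. The summed level of the members was 1108 to 1361 CPM in young, 1191 to 1351 in aged and 996 to 1372 in NR-treated aged libraries, so that their total overlapped between groups.

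**Figure D3:**
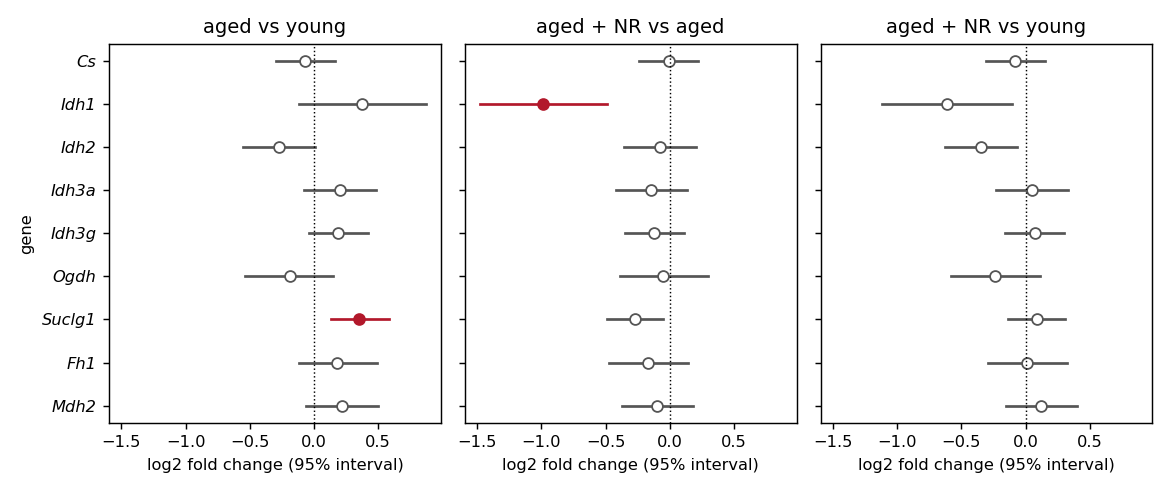
Log2 fold change of each of the 9 members in the 3 comparisons, with the 95% interval of edgeR's quasi-likelihood fit and filled markers for an adjusted p below 0.05. Suclg1 (0.35) is filled for aged against young and Idh1 (-0.99) for NR-treated against untreated aged HSC, while every other interval but those of Suclg1 in the latter and Idh1 and Idh2 in NR-treated aged against young HSC crosses 0.

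The rest of the pathway was followed in 4 lists of 49 genes, of which 46 were in the table. In aged HSC 9 of the 46 rose and 2 fell, beside 9.68% of all genes called higher and 9.63% called lower, with a median log2 fold change of 0.14. With library totals 4 were called higher and 5 lower. In HSC from NR-treated aged animals none rose and 3 fell against untreated aged HSC, beside 3.88% and 4.18% of all genes, with a median of -0.20 and 34 of 46 below 0. With library totals 3 were called higher and 1 lower in that comparison. The counts of the single lists below are small and are read against the same shares. Between NR-treated aged and young HSC none passed edgeR's quasi-likelihood test, 6 had an unadjusted p below 0.05, and DESeq2's Wald test also called 0.

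Among the mRNAs of the 10 other enzymes of the cycle, 2 rose with age and none fell. Sdha, the flavoprotein of succinate dehydrogenase, rose from 213 ± 16.1 to 260.4 ± 20.8 CPM (log2 fold change 0.29, quasi-likelihood adjusted p 0.0337). Suclg2, the GTP-forming beta subunit that pairs with Suclg1, rose from 44.9 ± 5.83 to 59.4 ± 10.4 CPM (0.43, quasi-likelihood adjusted p 0.0461). Sdha was called in 12 and Suclg2 in 7 of 25 other settings. None of the 10 was called between NR-treated and untreated aged HSC.

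Of 13 genes for the entry of pyruvate, 2 rose with age. Pdp1, a phosphatase that activates pyruvate dehydrogenase, rose from 30.1 ± 5.40 to 63.2 ± 7.87 CPM (log2 fold change 1.08 ± 0.16 SE, quasi-likelihood adjusted p 8.75e-05) and stood at 37.6 ± 7.18 CPM in HSC from NR-treated aged animals (-0.75 ± 0.15 against aged HSC, quasi-likelihood adjusted p 0.00846). Its aged libraries, at 53.2 to 74.5 CPM, lay above all young (21.4 to 34.96 CPM) and all NR-treated libraries (28.4 to 44.9 CPM). Pdk3, a kinase that inactivates the same complex, rose from 76.9 ± 9.91 to 104.9 ± 6.79 CPM (0.45, quasi-likelihood adjusted p 0.0152). The mRNAs of an activating and an inactivating enzyme thus both rose, and no protein or activity was measured here. Pdp2, the other phosphatase, was not called with age (0.12) and fell from 158 ± 11.1 to 124.5 ± 15.7 CPM with NR (-0.34, quasi-likelihood adjusted p 0.0443, called in 9 of 25 other settings).

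Of 12 cytosolic and refilling genes, 2 rose and 2 fell with age. Slc25a11, the carrier that exchanges 2-oxoglutarate for malate, rose from 125 ± 12.2 to 172 ± 18.2 CPM (log2 fold change 0.45, quasi-likelihood adjusted p 0.00517). Mdh1, the cytosolic malate dehydrogenase, rose from 247 ± 34.2 to 318 ± 25.7 CPM with age (0.37, quasi-likelihood adjusted p 0.0304) and fell to 239 ± 30.3 CPM with NR (-0.41, quasi-likelihood adjusted p 0.0321), with no overlap of the aged group with either other group. Mdh1 was called in 16 of 25 other settings with age and in 17 of 25 with NR. Acly, which splits exported citrate, fell from 83.3 ± 7.63 to 63.1 ± 7.30 CPM (-0.38, quasi-likelihood adjusted p 0.0186). The log2 ratio of mitochondrial Mdh2 to cytosolic Mdh1 was -0.17 ± 0.09 in aged and 0.13 ± 0.24 in NR-treated aged HSC, a difference of 0.30 (exact permutation p = 0.0159, adjusted 0.0635).

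Of 11 side enzymes and assembly factors, 3 rose with age. These were Sdhaf4 (77.0 ± 12.9 to 106.9 ± 8.23 CPM, log2 fold change 0.47) and Sdhaf1 (13.7 ± 3.37 to 23.0 ± 4.12 CPM, 0.73), which help to assemble succinate dehydrogenase, and Lipt1 (4.82 ± 1.47 to 9.81 ± 1.44 CPM, 1.03), which attaches lipoate to the dehydrogenase complexes. Their adjusted p by the quasi-likelihood test were 0.00899, 0.0233 and 0.0154, and Lipt1 had as few as 7 counts in a library. None of these 3 passed against aged HSC with NR, at -0.34, -0.26 and -0.48.

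**Figure D4:**
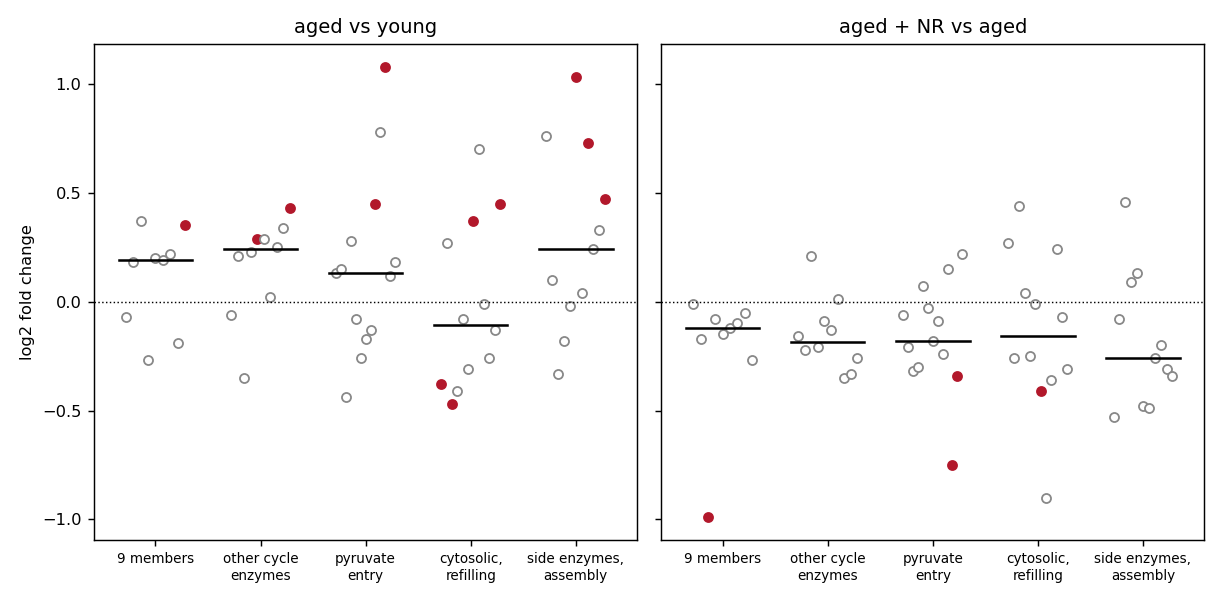
Log2 fold changes of the 9 members and of the 46 other pathway genes in their 4 lists, for aged against young (left) and NR-treated against untreated aged HSC (right). Each point is a gene, filled where called (adjusted p below 0.05), and the bars are list medians. The highest filled point on the left is Pdp1 (1.08) and the lowest on the right is Idh1 (-0.99).

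The genes whose levels were most like those of the called members were sought among 10069 genes by Pearson's r of log2 CPM over the 15 libraries, which differ in depth and in mature cell transcripts. For Idh1 they were Ostf1 (r = 0.911), Pdp2 (0.900) and Trem3 (0.899). Mean levels in young, aged and NR-treated aged HSC were 129, 140 and 115 CPM for Ostf1 and 146, 158 and 125 CPM for Pdp2. Those of Trem3 were 6.25, 12.4 and 0.547 CPM. The last is below the level of 3 counts in each NR-treated library (0.817 to 1.17 CPM), which is not told from absence. For Suclg1 they were Pdia6 (0.943), Ndufv2 (0.941) and Pdk3 (0.941). The correlations of deviations from the group means were 0.863, 0.778 and 0.797 for Idh1 and 0.897, 0.908 and 0.895 for Suclg1. Because the genes were picked by correlation over the same 15 libraries, these values are high in part by selection and are no separate check.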

How the data were processed

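HSC RNA, given as that of 15 mice, was made into 3′-biased libraries with a 10 bp unique molecular identifier. The authors aligned reads with STAR 2.4.2a to GRCm38, removed duplicated identifiers, counted reads on annotated exons with featureCounts and deposited raw counts of genes above their filter, which they give as over 5 reads and over 2 CPM in 2 or more samples. All 16154 genes met the CPM part, and 16122 the read part. Whether counting used strand is not given in the sources used here. No exon of a member overlaps an exon of another gene.

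The counts were fitted with edgeR 4.0.16 (R 4.3.3), TMM sizes, all 15 libraries and group as the only term. Quasi-likelihood F-tests were used, with p-values adjusted over the whole table (Benjamini-Hochberg). The method was run on simulated data with changes larger than most of those called here. That run does not cover smaller changes or libraries rich in mature cell transcripts. Group ratios used log2 of counts plus 0.5 and exact permutation tests (252 arrangements). Alternatives were edgeR's likelihood ratio test, DESeq2 1.42.0, other sizes, a count filter of 10 in every library, 2-group fits, thinning to 764119 counts, a replicate block and left-out libraries. Named beyond the members were called genes of the pathway lists, at most 4 a list by adjusted p, with Idh3b and Mdh1 as partners, and for called members the 3 most alike genes among those averaging 5 CPM or more with a name that is not of a predicted gene or pseudogene. The members and lists were chosen with earlier results of these data known. Values of some genes that these rules would name are not reported here. The labels name no batch.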

Additional observations from a re-analysis of the deposited data

Results flagged for a closer look

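Of 39 groups of 5 values examined (each member's CPM and each ratio by group), 5 held a library whose gap to the nearest other, divided by the group's range, was above Dixon's critical value of 0.71. Chance flags about 1 in 20 groups. Idh1 in young replicate 3 stood at 85.3 CPM (gap over range 0.812), and the log2 ratio of Idh1 to Idh2 in the same library was -1.05 (0.724). Ogdh stood at 162.2 CPM in aged replicate 2 (0.712), the shallowest library, and at 110.8 CPM in NR-treated replicate 3 (0.734). Idh3g stood at 257.6 CPM in NR-treated replicate 1 (0.758).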

How the results depend on the processing

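Of the fold changes of the members under settings that leave out no single library, 246 of 270 kept their direction and their side of the threshold. Reversed values were small. For NR-treated against untreated aged HSC, Cs was 0.0031 with DESeq2 size factors, 0.13 with library totals, 0.06 with the count filter, 0.08 with thinned counts and 0.01 without the shallowest and deepest aged libraries. In that comparison library totals gave 0.05 for Idh2, 0.02 for Idh3g, 0.08 for Ogdh and 0.04 for Mdh2, the count filter and thinning each gave 0.03 for Ogdh, and leaving out those aged libraries gave 0.03 for Idh2 and 0.13 for Ogdh. Thinning gave -0.03 for Fh1 in aged against young, and -0.16 for Idh3a and -0.05 for Fh1 in NR-treated aged against young HSC. Leaving out young replicates 1 and 5 gave -0.04 for Idh3a and -0.08 for Fh1 in the latter, and -0.02 for the log2 ratio of Idh3a to Idh3g in aged against young.

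Called members in aged against young numbered 0 with library totals, thinned counts or without young replicates 1 and 5, and 0 to 3 with single libraries left out. In NR-treated against untreated aged HSC they numbered 0 without the shallowest and deepest aged libraries and 0 to 1 with single libraries left out. Called genes over the whole table in aged against young numbered 1519 with thinned counts, 1862 without young replicates 1 and 5, 1472 without the shallowest and deepest aged libraries and 1953 to 3533 with single libraries left out. For NR-treated against untreated aged HSC they numbered 783 with the count filter, 414 thinned, 227 without those aged libraries and 422 to 1535 with single libraries left out, and against young HSC 418 thinned and 452 to 922. Called other pathway genes with age numbered 3 thinned, 6 without young replicates 1 and 5, 2 without those aged libraries and 5 to 12, and with NR 6 with DESeq2, 0 without those aged libraries and 1 to 6.

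With single libraries left out, ranges of results that crossed 0 were, for NR-treated against untreated aged HSC, -0.06 to 0.05 for Cs, -0.15 to 0.05 for Idh2 and -0.13 to 0.14 for Ogdh, and against young HSC -0.06 to 0.11 for Fh1, -0.02 to 0.14 for Idh3a and -0.02 to 0.13 for Idh3g. The log2 ratio of Idh1 to Idh2 ran from 0.53 to 0.95 with age and from -0.36 to 0.03 in NR-treated aged against young HSC. That of Idh1 to Cs ran from 0.41 to 0.72 with age and from -1.15 to -0.91 with NR. That of Idh3a to Idh3g ran from -0.03 to 0.08, -0.10 to 0.02 and -0.08 to 0.05 in the 3 comparisons, and that of Mdh2 to Mdh1 from 0.22 to 0.37 with NR. The cause of these changes was not tested.

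Replicate numbers did not pair libraries: deviations of same-numbered libraries from their group means correlated between -0.27 and 0.133, and 2, 0 and 0 of 10 libraries in the 3 comparisons correlated best with their own number. With the replicate block 2836, 1048 and 589 genes were called, and it changed no call of a member (Suclg1 0.35, Idh1 -0.96). Under the block Cs was 0.0017 with NR and Fh1 -0.0075 in NR-treated aged against young HSC. For the ratios, 5 pairs cannot give an exact p below 0.0625.

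The shallowest library, with 43 counts of Idh1 and 61 of Cs, limits the precision of the aged group.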
